A study of Mus musculus with 3 samples.

Results

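Aquaporins are channel proteins of the cell membrane, and their genes were examined in glomeruli isolated from 3 nondiabetic male FVB/NJ mice aged 8 weeks. The members are the 10 genes Aqp1, Aqp2, Aqp3, Aqp4, Aqp5, Aqp6, Aqp7, Aqp8, Aqp9 and Aqp11, among 18194 genes with a probe set of 1 gene. They were chosen by gene symbol in the platform annotation, which gave 22 probe sets for them, and no probe set of several genes named a member. Each mouse gave 1 Affymetrix mouse expression array, so every group statement rests on n = 3. The FVB/NJ mouse is the inbred wild-type control of the diabetic OVE26 line, and its mice here carried no transgene or drug treatment by the labels and were all fed one standard diet. OVE26 arrays were not analysed here. Diabetic and nondiabetic animals were therefore not compared, and the data answer only which aquaporin genes were measured in control glomeruli and how much they varied between mice.

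Aquaporins let water cross membranes along an osmotic gradient, and a subgroup, the aquaglyceroporins (Aqp3, Aqp7 and Aqp9 among these members), also passes glycerol. In the kidney Aqp1 is the water channel of the proximal tubule, the thin descending limb and the descending vasa recta, while Aqp2, Aqp3 and Aqp4 serve the principal cells of the collecting duct. Vasopressin acts there through its V2 receptor and cyclic AMP to move Aqp2 to the apical membrane, which sets how much water is kept. The glomerulus itself filters plasma and is not a classic site of aquaporin function.

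The promoter sequences of 3 members are shown because Aqp1 and Aqp11 were the members above background in every mouse and Aqp2, the vasopressin-regulated channel, was above it in 2 of the 3. They are the 250 bases before the annotated start, from RefSeq on GRCm38.p6, written 5′ to 3′ on the strand of the gene. Capitals mark matches, on either strand, to the TATA core (TATAA), to the GC box (GGGCGG), to the CCAAT box (those letters) or to the cAMP response element (TGACGTCA), and no match overlaps another. The Aqp1 window is chr6:55336049-55336298 on the plus strand, that of Aqp11 is chr7:97738248-97738497 on the minus strand, and that of Aqp2 is chr15:99578806-99579055 on the plus strand.
Aqp1: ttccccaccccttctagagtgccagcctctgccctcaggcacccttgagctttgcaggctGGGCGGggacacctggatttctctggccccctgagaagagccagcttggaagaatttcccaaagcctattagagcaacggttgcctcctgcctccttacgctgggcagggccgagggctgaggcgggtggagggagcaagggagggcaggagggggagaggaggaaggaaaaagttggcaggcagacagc
Aqp11: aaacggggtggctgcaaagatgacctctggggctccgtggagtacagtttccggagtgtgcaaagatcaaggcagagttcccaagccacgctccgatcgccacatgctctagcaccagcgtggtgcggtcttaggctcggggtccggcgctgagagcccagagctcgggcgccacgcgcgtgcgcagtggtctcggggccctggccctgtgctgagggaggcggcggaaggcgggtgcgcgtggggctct
Aqp2: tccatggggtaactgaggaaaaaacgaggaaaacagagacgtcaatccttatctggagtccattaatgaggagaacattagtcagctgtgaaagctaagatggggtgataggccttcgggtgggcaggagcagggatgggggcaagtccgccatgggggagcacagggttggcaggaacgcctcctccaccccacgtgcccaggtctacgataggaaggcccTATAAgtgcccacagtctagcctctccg
The Aqp1 window held 1 GC box, whose first letter lies 190 bases before the start, and 5 CpG dinucleotides. The Aqp11 window held none of the 4 motifs and 23 CpG dinucleotides, against a median of 6 over all 32851 promoter windows of this length. The Aqp2 window held 1 TATA core, 28 bases before the start, and 8 CpG dinucleotides. Of all windows 22.8% held the TATA core, 32.7% the GC box, 33.8% the CCAAT box and 1.55% the cAMP response element. These matches describe the letters of the windows only. The array did not measure the promoters.

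Aqp1 and Aqp11, 2 of the 10 aquaporin genes, were above background in every mouse. Another 2, Aqp2 and Aqp3, were above it in some mice, and the other 6 were below it in all. Over all genes 58.3% passed in all mice and 64.7% in at least 1. Values are log2 GCRMA expression values, on which a difference of 1 is 2-fold. Background was set from 80 probe sets of receptor genes of smell (olfactory and vomeronasal), used as an empirical floor, at their 95th percentile, which was 2.58, 2.91 and 2.86 in mice 1, 2 and 3. Of those 80 receptor probe sets 4 were themselves above background on all 3 arrays. For a gene with several probe sets the one with the highest mean stood for it, so a gene with more probe sets had more chances to pass. Among the 22 member probe sets, 2 were above background on all arrays, 2 on 1 or 2 arrays and 18 on none. Levels of different probe sets depend on the affinity of their probes and were not ranked against each other.

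**Figure D1:**
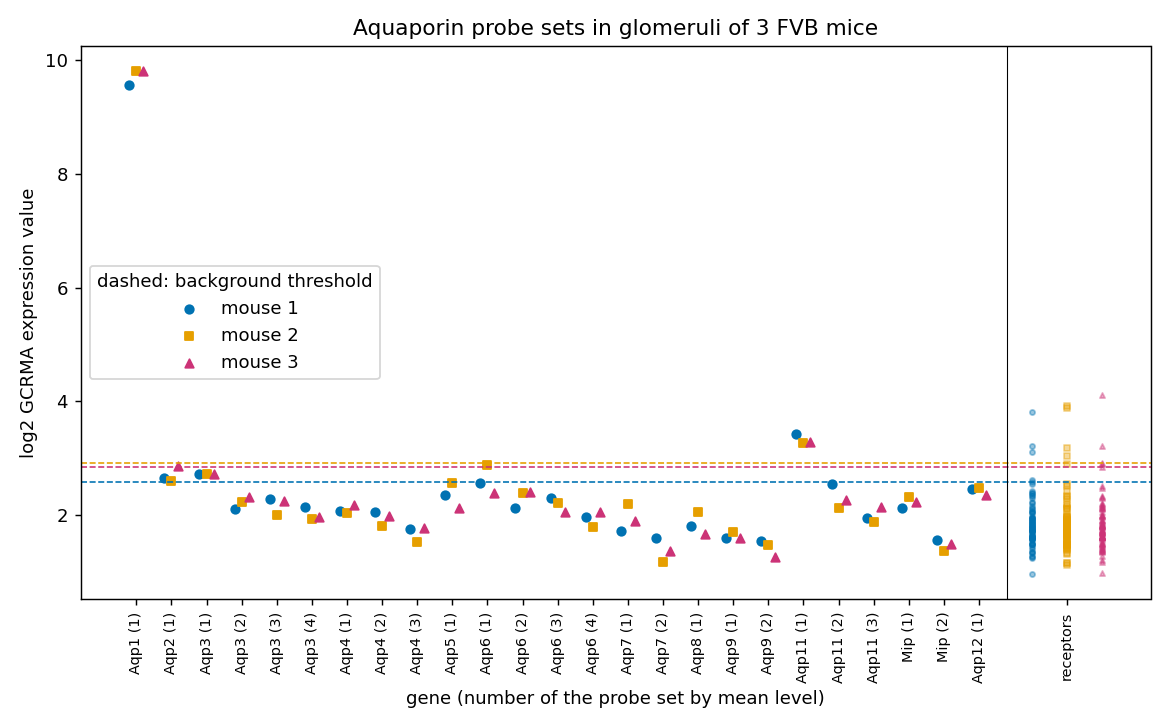
Log2 GCRMA expression values (vertical axis) of every probe set of the 10 aquaporin genes, and of Mip and Aqp12, in each of the 3 mice, with the 80 receptor probe sets at the right and the background threshold of each mouse as a dashed line of its colour. The single probe set of Aqp1 lies at 9.56 to 9.81, far above the thresholds of 2.58 to 2.91, and 1 of 3 Aqp11 probe sets lies above them in every mouse.

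Aqp1 was clearly measured in the RNA of the glomerular isolate of every mouse. Its only probe set was at 9.56 in mouse 1, 9.81 in mouse 2 and 9.80 in mouse 3, with a mean of 9.73 ± 0.14 (SD, n = 3). Mouse 1 was the lowest, and mice 2 and 3 were nearly equal. The values exceeded the background threshold by 6.98, 6.90 and 6.95 on the log2 scale, and all 80 receptor probe sets were lower on each array. Its range, from the lowest to the highest mouse, was 0.24, which is 1.18-fold. Mouse 1 sets it, and without mouse 1 the range was 0.0067.

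The spread of Aqp1 between mice did not pass the test for excess variance. Its SD of 0.139 stood beside a median of 0.117 over the 1457 genes within 0.5 of its level, of which 61.2% had a smaller SD. Its variance was 1.21 times the value that limma's trend gave for its level (adjusted p = 0.972, one-sided). Aqp11 did not pass that test either, so 0 of the 2 members tested were called. Over all 10610 genes tested 0% were called, with a smallest adjusted p of 0.469, and 493 genes had an unadjusted p under 0.05, none of them a member. Miox, a proximal tubule gene with a 20.0-fold range, was not called either (limma, adjusted p = 0.602, one-sided). The test therefore cannot show that Aqp1 or Aqp11 varied little. With 1 array per mouse the order of the mice could not be tested for any gene.

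**Figure D2:**
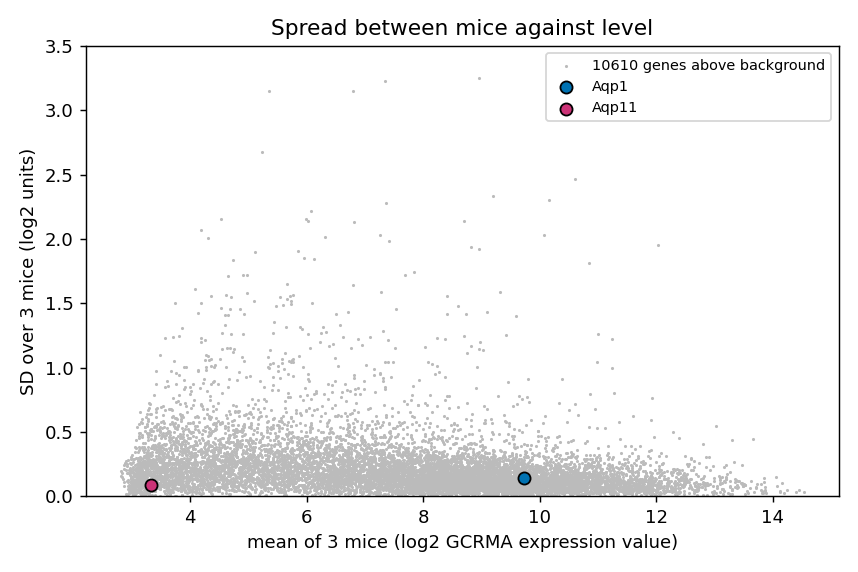
SD over 3 mice (log2 units, vertical axis) against mean level (horizontal axis) for the 10610 genes above background in all mice, with Aqp1 and Aqp11 as large points. Aqp1 (SD 0.139) and Aqp11 (SD 0.0863) lie among the bulk of genes of like level.

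The values of Aqp1 did not run parallel to those of proximal tubule genes, although this segment is a main site of Aqp1 in the kidney. Of the 11 proximal tubule genes on the array, 10 passed the threshold in every mouse, and all 10 had their highest value in mouse 3. Slc34a1, the sodium-phosphate cotransporter of the brush border, was at 4.44, 5.35 and 7.41 in mice 1, 2 and 3, and Lrp2, the endocytic receptor megalin, at 5.04, 5.43 and 7.81. From mouse 1 to mouse 3 these 10 genes were higher by a median of 2.88 on the log2 scale, from 2.19 to 4.32, while Aqp1 was higher by 0.24. From mouse 1 to mouse 2 the median was 0.78 for the proximal tubule genes and 0.24 for Aqp1, and from mouse 2 to mouse 3 Aqp1 differed by -0.01. Of the 10 genes 0 had a range at or below that of Aqp1. The linear values of all 11 summed to 1500, 2252 and 8691 in mice 1, 2 and 3. Most of each sum came from 1 gene, Kap, at 10.30, 10.81 and 12.62 on the log2 scale. In these bulk isolates fewer cells of a type and less RNA per cell cannot be told apart, and the part of tubule cells in the Aqp1 level was not tested.

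Other sites of Aqp1 gave the following values. Red blood cells carry Aqp1, and 2 of the 5 erythroid genes on the array passed the threshold in every mouse. These were Alas2 (3.67, 3.40 and 3.25), close to the floor, and Add2 (9.56, 8.85 and 9.19). Both were highest in mouse 1, where Aqp1 was lowest. Of the globin genes read, Hba-a1 passed the threshold in no mouse and Hba-a2 in 2 mice (3.20, 2.82 and 2.98). Hbb-b1, a further globin gene on the list, had no probe set of 1 gene and was not read. The level of globin RNA as a whole was therefore not tested. Epb42, the remaining gene of the 5, was below background in all mice. Of 5 thin limb genes 2 were above background, Epha7 (8.29, 8.76 and 8.53) and, close to the floor, Bst1 (2.63, 3.61 and 3.14). Both were lowest in mouse 1 and highest in mouse 2, as were all 7 thick ascending limb genes. Aqp1 was also lowest in mouse 1, and its range over mice 2 and 3 was 0.0067. The other 3 thin limb genes, Cldn4, Slc4a11 and the urea transporter gene Slc14a2, were below background in all mice, with Slc14a2 at 1.56 to 1.87. All 8 genes of the glomerular endothelium passed the threshold, and 7 of the 8 were highest in mouse 1, where Aqp1 was lowest. Their median range was 0.25, beside 0.24 for Aqp1 and a median of 0.30 over all 10610 genes above background. Ehd3, an endothelial trafficking gene, was at 13.36, 13.26 and 13.30, and the VEGF receptor gene Kdr at 12.60, 12.47 and 12.39. The part of each of these cell types in the Aqp1 level was not tested.

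**Figure D3:**
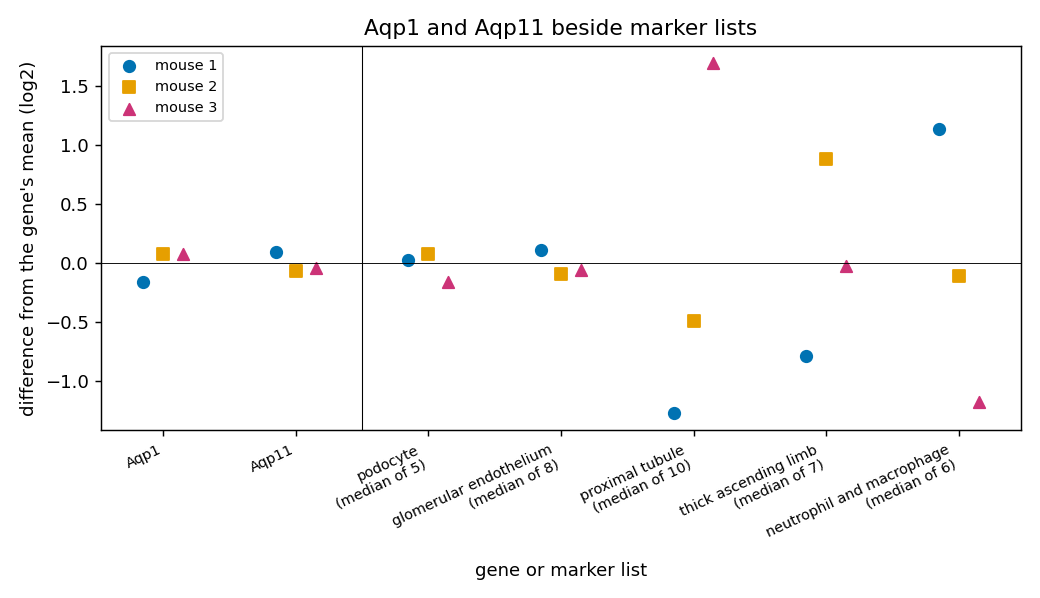
Difference of each mouse from the gene's own mean over the 3 mice (log2, vertical axis) for Aqp1 and Aqp11 and, at the right, the median of that difference over the genes of 5 marker lists. Aqp1 and Aqp11 differ from their means by 0.16 or less after rounding, while the proximal tubule median runs from -1.26 in mouse 1 to 1.70 in mouse 3.

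Aqp11 was the other member above background in every mouse, at a level close to the floor. Its product is an unorthodox aquaporin of the endoplasmic reticulum, and mice that lack it develop cystic kidneys from the proximal tubule. Its highest probe set was at 3.43 in mouse 1, 3.26 in mouse 2 and 3.29 in mouse 3 (3.33 ± 0.09, SD, n = 3). These values were 0.84, 0.35 and 0.44 above the thresholds of the same mice, and mouse 1 was the highest. Of the 80 receptor probe sets, 1 was higher than Aqp11 on all 3 arrays. The other 2 probe sets of Aqp11 were below background in all mice, at 2.12 to 2.56 and at 1.88 to 2.14. The call therefore rests on 1 of 3 probe sets, and it was lost with a threshold at the 99th percentile of the receptors or when the probe sets of the gene were averaged.

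The range of Aqp11 over the mice was 0.16, or 1.12-fold, and 0.03 without mouse 1. Its SD of 0.0863 was below the median of 0.197 over the 1005 genes within 0.5 of its level, of which 18.01% had a smaller SD (limma, adjusted p = 0.999, one-sided). From mouse 1 to mouse 3 Aqp11 differed by -0.13, against a median of 2.88 for the proximal tubule genes. With Aqp11 so close to the floor, this does not show whether its RNA followed those genes.

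The water channels of the collecting duct lay at the background threshold or below it. Aqp2, the channel that vasopressin moves to the apical membrane, was read by 1 probe set at 2.65, 2.60 and 2.87 in mice 1, 2 and 3. It was above the threshold by 0.07 in mouse 1 and by 0.01 in mouse 3 and differed from it by -0.31 in mouse 2. The margins in mice 1 and 3 were smaller than its SD of 0.14, and that in mouse 2 was larger. It lay above 77, 75 and 76 of the 80 receptor probe sets in mice 1, 2 and 3.

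Aqp3, an aquaglyceroporin of the basolateral membrane of principal cells, was at 2.73 in each mouse by its highest probe set, with identical values in mice 1 and 3. It was above the threshold in mouse 1, by 0.15, because the threshold was lower there, and below it in mice 2 and 3. Its SD was 0.0037, and it was the 1 probe set of the 22 with identical values on a pair of arrays. The other 3 probe sets of Aqp3 were below background on every array, at 1.93 to 2.33. Aqp4, the other basolateral channel of principal cells and the main water channel of astrocytes, was below background on every array by all 3 probe sets, at 1.52 to 2.17.

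Markers of principal cells were mostly below background as well. Of 8 such genes, 0 passed the threshold in every mouse, 7 passed it in none, and the cortisol-inactivating enzyme gene Hsd11b2 was above it in 2 mice. The V2 vasopressin receptor gene Avpr2 had a mean of 1.68 ± 0.27 (SD, n = 3). Scnn1b, a subunit of the epithelial sodium channel, was at 2.38, 2.14 and 2.11 in mice 1, 2 and 3. The linear values of the 8 genes summed to 37.4, 37.0 and 38.1. These sums are made mostly of values below background, so their likeness carries no information on principal cell RNA. Genes of the thick ascending limb, which lies upstream, were above background for 7 of 7 and were all highest in mouse 2, with Umod at 12.47, 13.56 and 13.06 and Slc12a1 at 10.09, 11.68 and 10.85. Of 5 distal convoluted tubule genes 3 passed the threshold in every mouse, and they did not share 1 order of the mice. Pvalb (2.83, 3.86 and 3.27) and Slc8a1 (7.35, 7.72 and 7.35) were highest in mouse 2, and Calb1 (3.80, 3.64 and 5.55) was highest in mouse 3. The thiazide-sensitive cotransporter gene Slc12a3 was above background in 2 mice (2.36, 4.32 and 3.67).

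Aqp6, an anion-permeable aquaporin of vesicles in intercalated cells, was below background in all mice. Its highest probe set was at 2.56, 2.88 and 2.39 in mice 1, 2 and 3, which missed the thresholds of mice 1 and 2 by margins of -0.02 and -0.04. Its other 3 probe sets were at 1.79 to 2.41. Of the 7 intercalated cell genes on the array, 2 passed the threshold in every mouse. The proton pump subunit gene Atp6v1b1 was highest in mouse 2 (3.76, 5.94 and 4.19), the mouse in which Aqp6 also had its highest value. The other, Slc4a1 (3.46, 2.94 and 3.23), went the other way, highest in mouse 1 and lowest in mouse 2. Atp6v0d2, another subunit gene of the proton pump, was below background in all mice, at 2.26 to 2.50. Below the threshold the order of the Aqp6 values carries no information on its RNA.

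Aqp7 and Aqp8 are proximal tubule members and were below background in every mouse, including mouse 3. Aqp7 is an aquaglyceroporin of the brush border of the straight proximal tubule and of fat cells. Its probe sets were at 1.72, 2.20 and 1.89 and at 1.60, 1.17 and 1.37 in mice 1, 2 and 3. The first of these has a name that marks possible cross-hybridisation, and the second lay above 19, 3 and 5 of the 80 receptor probe sets. Aqp8, which also passes ammonia and hydrogen peroxide, was at 1.81, 2.06 and 1.67. In mouse 3, in which Slc34a1 and Lrp2 were at 7.41 and 7.81, neither gene was above background. Of 5 adipocyte genes 1 was above background (Fabp4, which endothelium also expresses), and Adipoq and Cidec were below it in all mice, at 1.29 to 1.56 and 1.56 to 1.78.

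Aqp9, the glycerol channel of hepatocytes that neutrophils and macrophages also carry, was below background on every array. Its probe sets were at 1.59, 1.70 and 1.60 and at 1.55, 1.47 and 1.27 in mice 1, 2 and 3. Neutrophil and macrophage genes were above background for 6 of 10, and 5 of the 6 were highest in mouse 1. The calprotectin genes S100a8 (6.79, 5.19 and 4.28) and S100a9 (4.94, 3.31 and 3.46) were highest there, while the 2 Aqp9 probe sets stayed at 1.59 and 1.55 in that mouse. The granulocyte receptor gene Csf3r, named after its value was seen, was below background in all mice.

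Aqp5, the apical water channel of salivary, lacrimal and airway glands, was read by 1 probe set at 2.35, 2.57 and 2.13 and was below background in all mice. The remaining family genes, Mip of the eye lens and Aqp12 of the pancreas, give a reference for probe sets of this family in a tissue where neither is known to act. Mip was at 2.13 to 2.32 and at 1.37 to 1.56, and Aqp12 at 2.36 to 2.47. A value below background means that the probe set was not distinguishable from the receptor floor, not that the RNA was absent.

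The other genes of vasopressin signalling and water channel trafficking were mostly measured, and the V2 receptor gene and the urea transporter genes were not. Of 32 genes on this list 26 passed the threshold in every mouse, beside 58.3% of all genes, and 6 passed it in no mouse. These 6 were Avpr2, Avpr1b, the urea transporter genes Slc14a1 and Slc14a2, and the epithelial transcription factor genes Elf3 and Elf5. Avpr1a, the V1a vasopressin receptor of smooth muscle and mesangial cells, was at 5.40, 5.13 and 5.28 in mice 1, 2 and 3. The 26 measured genes include the adenylate cyclases Adcy3 and Adcy6, subunits of protein kinase A, the osmotic stress factor Nfat5 and the vesicle fusion genes Vamp2, Stx4a and Snap23, most of which are expressed in many cell types. None of the 26 passed the limma test of excess variance, and 1 had an unadjusted p under 0.05, beside 4.65% of all genes tested. Of the 26, 0 had a 2-fold range, beside 5.94% of all genes tested. Their median range was 0.24, against 0.30 over all 10610 genes above background.

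Genes of glycerol handling, which bear on the aquaglyceroporins, were above background for 7 of 8 with a probe set. Gpd1, a glycerol-3-phosphate dehydrogenase, was at 3.89, 3.70 and 3.76, and its relative Gpd1l at 9.04, 9.02 and 8.92. Of the 7 genes 1 had a 2-fold range, Pck1, a gluconeogenic enzyme gene of the proximal tubule, which was named after its values were seen (7.22, 6.50 and 9.82). None of Aqp3, Aqp7 and Aqp9 was above background in all mice.

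Of the 2 aquaporin genes measured in every mouse, 0 had a 2-fold range, against 5.94% of all 10610 such genes. A count over 2 genes cannot be told apart from that share. A 2-fold range was found in 10 of 10 proximal tubule genes and 6 of 7 thick ascending limb genes. It was also found in 5 of 6 neutrophil and macrophage genes, and limma called none of the genes on these lists after adjustment. The ranges of Aqp1 and Aqp11 lay inside the 0.05 to 0.47 spanned by podocyte genes, which had a median range of 0.26, with 2 of 5 at or below that of Aqp1, and mesangial genes a median of 0.35, with 2 of 4 at or below it. This is a description of 3 arrays, and no test of the difference between lists was made.

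**Figure D4:**
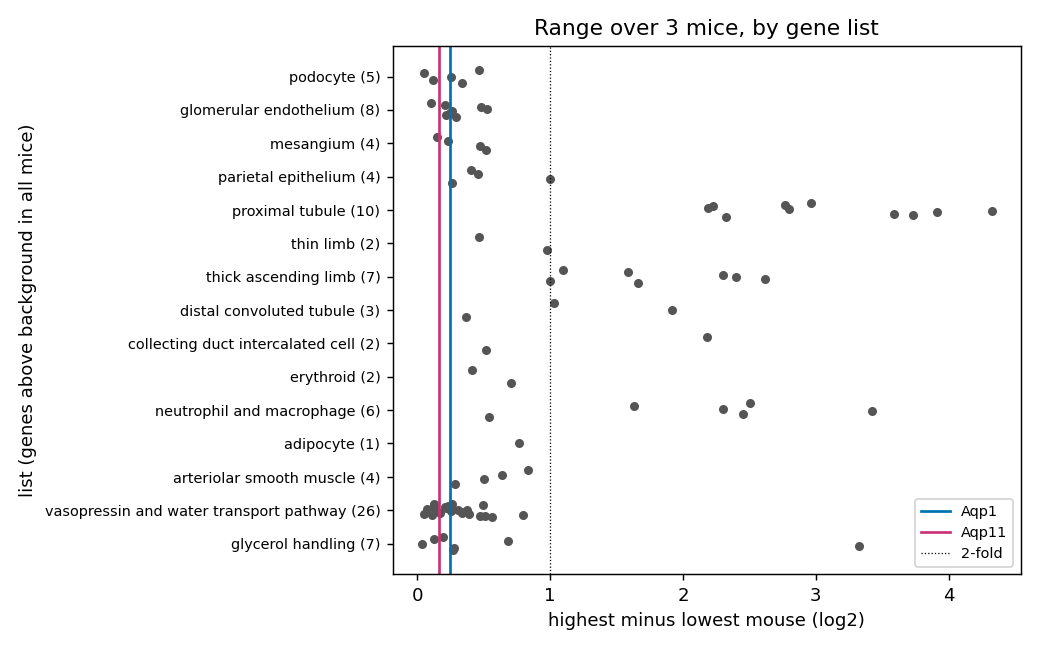
Highest minus lowest mouse (log2, horizontal axis) of each gene above background in all mice, by marker or pathway list (rows, number of genes in parentheses). Vertical lines mark Aqp1 at 0.24, Aqp11 at 0.16 and a 2-fold range. The podocyte, endothelial and vasopressin pathway genes scatter around the aquaporin lines, and the 10 proximal tubule genes lie at 2.19 or above.

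The glomerular label was checked against markers, which can show that glomerular RNA was present but not that the isolates were pure. Tubule genes were above background in every mouse as well, for 10 of 11 of the proximal tubule and 7 of 7 of the thick ascending limb. Among the latter, Umod was at 12.47 to 13.56. Podocyte genes were above background for 5 of 5, with the slit diaphragm gene Nphs1 at 11.36, 11.30 and 10.90 and Podxl at 14.51 to 14.56. Mesangial genes were above background for 4 of 4, with Pdgfrb at 13.19 to 13.34 and Itga8 at 13.25 to 13.48, and parietal epithelial genes for 4 of 5, with Cldn1 at 7.82 to 8.22 and Pax8 at 3.37 to 3.83. Of 6 arteriolar smooth muscle genes 4 were above background, with Acta2 at 10.04 to 10.88 and Myh11 at 6.69 to 7.33. The array medians were 2.82, 2.85 and 2.82, and 22095 to 24578 of 45101 probe sets were above background. The number of arrays limits the precision of every value. The labels describe RNA from each mouse separately, so the spread covers differences between mice together with those of isolation and hybridisation.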

How the data were processed

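Gene expression was measured in glomeruli of 3 FVB/NJ mice on 1 array each. The deposited table holds log2 values, a scale taken from the values themselves, made with GCRMA per the submitters' processing notes (version not given). The set of arrays normalised together was not given in the sources used here. Genes were assigned by the platform annotation, and all 10 members matched the reference gene table (GRCm38.p6) by gene identifier.

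Each gene's variance over mice was set against limma's scaled F distribution (version 3.58.1, R 4.3.3), fitted robustly with a trend across all genes above background. P-values are one-sided and Benjamini-Hochberg adjusted over all genes, with a threshold of 0.05. The procedure was tested on simulated data. The members and lists were chosen with earlier results of these data known. Named genes are all members and, as no list gene passed the test, the first 2 genes of each list with a probe set. Other list genes in the text were named after their values were seen. The rule on genes with a like pattern named none, since no member had a 2-fold range. Alternatives were other thresholds, probe set rules, array scalings, fits, and each mouse left out.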

Additional observations from a re-analysis of the deposited data

How the results depend on the processing

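The count of aquaporin genes above background in all mice was 2 and depended on the floor. It was 1 (Aqp1) with the threshold at the 99th percentile of the receptor probe sets, 1 (Aqp1) when the probe sets of a gene were averaged, and 1 (Aqp1) with the threshold at the highest receptor probe set. It was 5 (Aqp1, Aqp2, Aqp3, Aqp6 and Aqp11) with the threshold at the 90th percentile. The 90th percentile and the highest receptor probe set were chosen after seeing the data. Leaving out 1 mouse at a time gave 2 to 3 genes, with Aqp2 added without mouse 2. Centring the arrays, quantile normalisation and leaving out probe sets that can cross-hybridise gave 2. The count of aquaporins with excess variance was 0 under all 13 alternatives, as was the count over all genes tested. The count of aquaporins with a 2-fold range was 0 under all 11. The adjusted p of Aqp1 ran from 0.942 to 1 and that of Aqp11, where it was tested, from 0.965 to 1. No paired analysis was possible because the labels give 1 group only. Signal over the floor limits every dim member, and 3 arrays limit the test of variance.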
